A study of Drosophila melanogaster with 21 samples.

Results

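Wild-type LS2 was compared with LS2 carrying the paired changes F285D and F287D, in 6 of the 21 libraries of a fly series on mutants of this splicing factor. The members were taken from the sample labels alone: the 3 libraries of the group RRM2, which carry the F285D and F287D form, and the 3 libraries of the group WT, which carry unaltered LS2. The 3 libraries of the group GFP, which express GFP and no LS2 construct, are given beside them as a description. All of these cells are S2, a cultured line of Drosophila melanogaster with a haemocyte (blood cell) character. All carry a copper-inducible gene integrated into the genome with a hygromycin marker, and all, the GFP controls included, were kept in 500 µM copper sulfate for 53 h. PolyA-selected RNA was then sequenced. The labels describe no repeat integration, so each construct is taken here as 1 line, and what the construct does and what the line brings with it cannot be told apart. The labels do not say whether the 3 libraries of a group came from separate cultures. The p-values of the main fits measure the spread between libraries of a group, pooled over all 21 libraries, and that spread may be technical.

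LS2 is a fly relative of U2af50, the large subunit of U2AF. U2AF binds the end of an intron, the large subunit on the pyrimidine-rich stretch and the small subunit, U2af38, on the AG that follows, and so helps to fix which 3′ splice site is used. LS2 pairs with the same small subunit and has been described as a testis-enriched protein that binds guanine-rich RNA and represses splicing nearby. RRM is the usual abbreviation for an RNA recognition motif, the fold with which such proteins contact RNA. In many such folds aromatic residues stack on RNA bases, and the changes in RRM2 replace phenylalanine by the acidic residue aspartate. The comparison with WT addresses what these changes alter in gene expression and in the choice of isoforms.

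The 6 libraries held between 25125609 (RRM2 replicate 2) and 34670761 (WT replicate 1) estimated counts. The GFP, WT and RRM2 libraries belong to the same set in how the deposited effective lengths depart from transcript lengths. In them, 0.33% to 1.18% of transcripts had an effective length above their length. In the groups Beta5, GSlinker and SF1, other LS2 mutants of the series, it was 8.312% to 16.019%. The main fits take their spread from all 21 libraries, these groups included. Of 15 haemocyte markers, 13 reached 1 TPM (a deposited level that accounts for transcript length and library size) in at least 1 library of WT and of RRM2. NimC1 and lz were below it in every library of both groups. All 9 fat body markers were below 1 TPM in both groups. The muscle list had 7 of its 9 markers below 1 TPM in both groups, with summed levels of 22.4 to 29.7 TPM in WT and 24.6 to 29.3 TPM in RRM2. The neuron list also had 7 of 9 below 1 TPM, with sums of 36.3 to 55.5 TPM in WT and 47.2 to 61.9 TPM in RRM2.

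LS2 itself (FBgn0034834, BDGP6 chromosome 2R, 23210130 to 23211539, minus strand) checks the labels of GFP against those of the LS2 constructs. It cannot check RRM2 against WT, since a transcript total does not show the F285D and F287D changes. Its level was 6112, 6660 and 6070 TPM in the WT libraries and 7397, 7559 and 8216 TPM in the RRM2 libraries, against 1.46, 1.49 and 3.97 TPM in GFP. All 3 RRM2 libraries lay above all 3 WT libraries. The difference on the log2(TPM + 1) scale was 0.30. A two-sided exact permutation test gave p = 0.1, and 3 against 3 libraries allow no smaller value. Over all genes, edgeR's quasi-likelihood test gave LS2 a log2 fold change of 0.22 (SE 0.16, adjusted p 0.497). In an edgeR fit on the 6 libraries of WT and RRM2 alone, LS2 was called higher at the same log2 fold change of 0.22 (adjusted p 0.0405), and over the 13 alternatives its adjusted p ran from 0.0405 to 0.743. Equal LS2 levels are therefore not shown, and the part of a higher LS2 level in the differences below was not tested.

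Of 8750 genes tested, 710 (8.11%) differed in expression between RRM2 and WT at an edgeR adjusted p under 0.05. Among them 357 (4.08%) were higher in RRM2 and 353 (4.03%) were lower. Most changes were small: the median size of the log2 fold change was 0.44 among called genes and 0.11 among all genes tested. A change of at least 2-fold was seen in 116 called genes, of which 36 were higher and 80 lower in RRM2. In 701 called genes (8.01% of those tested) the RRM2 and WT libraries did not overlap in CPM (estimated counts scaled to library size with TMM factors), against 30.4% of all genes tested with no overlap. A limma fit on log2(TPM + 1), on which the median of all genes lay at 0.074, called 757 genes and split them as 587 higher and 170 lower. Without RRM2 replicate 2, edgeR called 444 genes (225 higher and 219 lower), and without RRM2 replicate 3 it called 450 (222 higher and 228 lower). Without WT replicate 3, 236 genes were called higher. An edgeR fit over the 12 libraries of GFP, WT, RRM2 and d38, another LS2 mutant, called 1351 genes. That fit leaves out the groups Beta5, GSlinker and SF1.

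**Figure D1:**
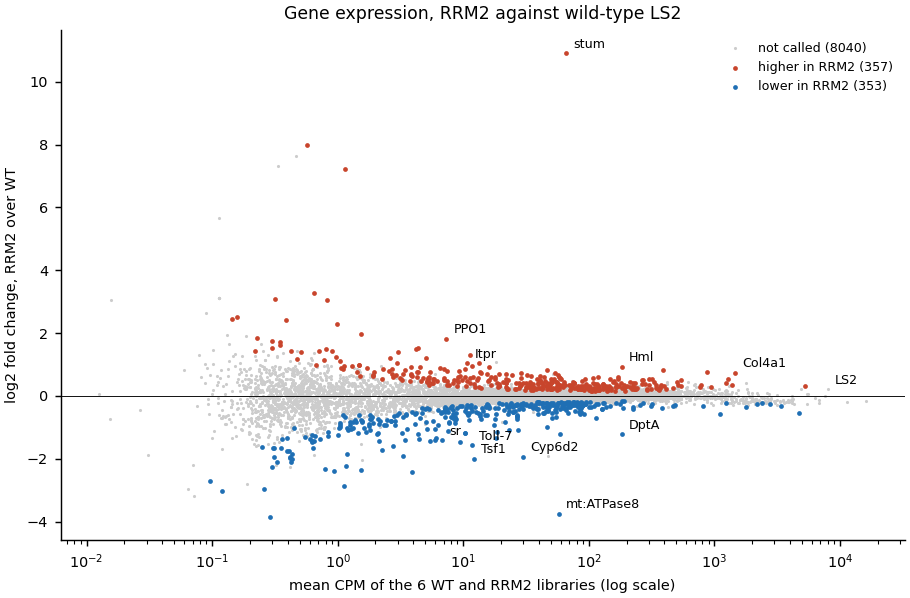
Each point is a gene, with the mean CPM of the 6 WT and RRM2 libraries on a log axis and the log2 fold change of RRM2 over WT on the vertical axis. Red points are the 357 genes called higher in RRM2, blue points the 353 called lower and grey points the genes not called, and stum stands far above the rest.

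The prophenoloxidase genes PPO1 and PPO2 and other haemocyte genes were higher with RRM2 LS2 than with wild-type LS2. PPO3 and He, also on the haemocyte marker list, were not called. Of the 15 haemocyte markers, 14 were tested, and 8 (57.1%) were higher and 0 lower, against 4.08% of all genes called higher and 4.03% called lower. Their median log2 fold change was 0.40, against −0.008 over all genes tested. PPO1, a prophenoloxidase of the melanisation response, had 3.35, 2.70 and 3.58 CPM in WT and 10.2, 11.9 and 12.1 CPM in RRM2. The groups did not overlap, and the GFP libraries had 61.1 to 68.9 CPM, above both. The log2 fold change of PPO1 was 1.82 (SE 0.12, edgeR adjusted p 2.07e-09), on a gene at chromosome 2R, 17887220 to 17889973, whose other strand holds Elk, so reads of the pair may have been shared. PPO2, a second enzyme of the same kind, had 6.05, 6.56 and 7.54 CPM in WT and 11, 11.6 and 12.4 CPM in RRM2 (log2 fold change 0.80 with SE 0.13 and edgeR adjusted p 2.79e-04). The GFP libraries of PPO2 lay at 56.5 to 66.6 CPM, again above both groups. Hml, the clotting protein hemolectin, had 135, 133 and 110 CPM in WT and 210, 239 and 271 CPM in RRM2, a log2 fold change of 0.93 (SE 0.11, edgeR adjusted p 6.79e-06). Here the RRM2 libraries overlapped the GFP libraries, which had 197 to 231 CPM.

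The other markers that rose were the scavenger receptor Sr-CI (0.60), peroxidasin Pxn (0.53), the immunoglobulin-family receptor Dscam1 (0.53), Tig (0.28) and the GATA cofactor ush (0.28), with edgeR adjusted p-values from 3.80e-04 to 0.0130. The GATA factor srp, at 371 CPM in the mean of both groups, had an edgeR adjusted p of 0.996, and the phagocytosis receptors eater and crq had 0.993 and 0.551. Summed over the 15 markers, the level was 653 to 774 TPM in WT, 869 to 1007 TPM in RRM2 and 1093 to 1143 TPM in GFP. In bulk RNA, more cells of a kind and more RNA per cell cannot be told apart.

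In the list of cytoskeleton and adhesion genes, 9 of 24 tested genes were higher with RRM2 LS2, against 4.08% of all genes, and 1 was lower, against 4.03% (median log2 fold change 0.18). Col4a1 and vkg encode the 2 type IV collagen chains of the fly and lie next to each other on chromosome 2L. Col4a1 had 1084, 1141 and 1050 CPM in WT and 1811, 1812 and 1857 CPM in RRM2, and vkg had 650, 680 and 601 CPM in WT and 1068, 1108 and 1107 CPM in RRM2. Neither gene overlapped between the groups. Their log2 fold changes were 0.74 (SE 0.06, edgeR adjusted p 1.78e-07) and 0.77 (SE 0.07, edgeR adjusted p 2.10e-07). In GFP, Col4a1 had 2943 to 3210 CPM and vkg 1673 to 1843 CPM, above RRM2 in each case. The laminin chains LanB1 and LanB2 rose by log2 fold changes of 0.41 and 0.28, and LanA, at 0.21, had an edgeR adjusted p of 0.292. The integrin subunits if (0.42) and scb (0.22) and talin, encoded by rhea (0.33), also passed the test, whereas mys, the main integrin beta subunit, did not (0.08, edgeR adjusted p 0.631). The calls of Tig and Pxn also stand in the haemocyte list above. The call of rhea was lost under 8 of 13 alternatives, and its RRM2 and WT libraries overlapped. Act42A, a cytoplasmic actin, was the gene that fell, from 3718, 3808 and 3748 CPM to 3135, 2876 and 3032 CPM (log2 fold change −0.32, edgeR adjusted p 0.0138), and it was not called without RRM2 replicate 2.

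Antimicrobial peptide genes moved the other way. Of 14 tested, 8 (57.1%) were lower in RRM2, against 4.03% of all genes, and 0 were higher, with a median log2 fold change of −0.57. DptA, a diptericin (chromosome 2R, 18865765 to 18866260, plus strand), had 245, 251 and 274 CPM in WT and 114, 108 and 108 CPM in RRM2. The WT libraries were all above the RRM2 libraries, and GFP had less than either, at 0.728 to 0.919 CPM. The log2 fold change was −1.22 (SE 0.09, edgeR adjusted p 4.28e-08). Drs, the antifungal peptide drosomycin, had 59.9, 55.6 and 71.0 CPM in WT, 33.3, 32.5 and 29.2 CPM in RRM2 and 21.4 to 27.3 CPM in GFP (log2 fold change −0.97, SE 0.14, edgeR adjusted p 1.31e-04). CecA2 (−0.83), Mtk (−0.77), AttD (−0.71), AttC (−0.70), Dro (−0.43) and CecA1 (−0.36) were the other genes that fell, with edgeR adjusted p-values of 1.80e-05 to 0.0386. DptB, the adjacent diptericin gene, had a log2 fold change of −0.36 and an edgeR adjusted p of 0.114, and CecB had −0.05 and 0.830. Near-identical copies such as AttA and AttB or the cecropins may have shared reads. The count of 8 was 5 without RRM2 replicate 3, WT replicate 1 or WT replicate 3, and also 5 by limma on log2(TPM + 1), and no setting called a member higher.

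Of 25 tested genes of the IMD and Toll pathways, which act upstream of these peptides, 4 (16%) were called, against 8.11% of all genes. Among them spz, the ligand of Toll, was higher (log2 fold change 0.35, edgeR adjusted p 5.09e-05), with 452, 454 and 440 CPM in WT against 564, 566 and 585 CPM in RRM2. The IMD inhibitor pirk (−0.38), the caspase Dredd (−0.26) and the recognition protein PGRP-SD (−0.24) were lower. With RRM2 replicate 2, RRM2 replicate 3 or WT replicate 3 left out, 1 gene of the list was called lower, and limma on log2(TPM + 1) called 0 lower and 2 higher. In the JAK-STAT list, 5 of 9 tested genes (55.6%) were lower, against 4.03% of all genes, and 0 higher (median log2 fold change −0.33), and limma on log2(TPM + 1) called 2 lower. The cytokine gene upd3 had 35.0, 34.3 and 33.0 CPM in WT and 24.8, 26.6 and 25.8 CPM in RRM2 (log2 fold change −0.41, edgeR adjusted p 0.00152). Socs36E, a feedback inhibitor of the pathway, fell from 220, 216 and 199 CPM to 146, 171 and 167 CPM (−0.39, edgeR adjusted p 0.00360). TotA, a stress peptide gene (−0.88), and the thioester proteins Tep4 (−0.33) and Tep2 (−0.32) fell as well. The receptor dome, the kinase hop and the factor Stat92E had log2 fold changes of 0, −0.01 and 0.15 and did not pass the test.

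**Figure D2:**
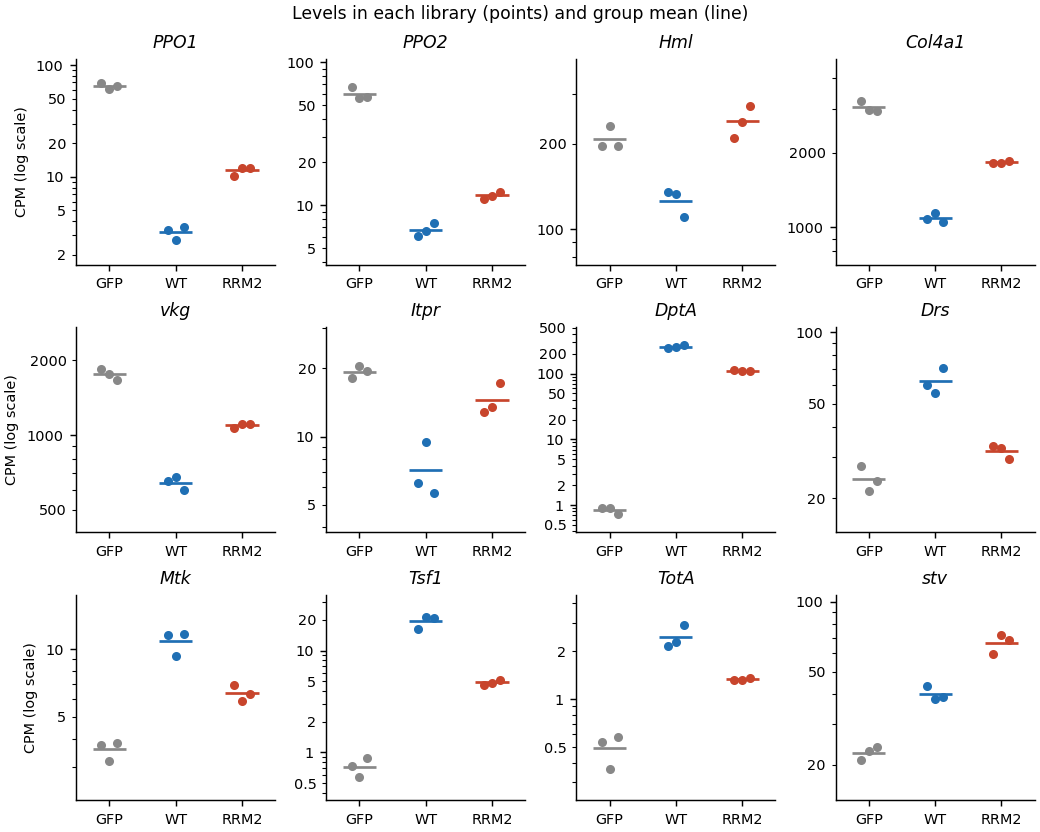
Each panel shows 1 gene, with CPM on a log axis for each library of GFP (grey), WT (blue) and RRM2 (red) and a line at the group mean. The RRM2 points of PPO1, PPO2, Hml, Col4a1, vkg, Itpr and stv lie above those of WT, and those of DptA, Drs, Mtk, Tsf1 and TotA lie below.

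**Figure D3:**
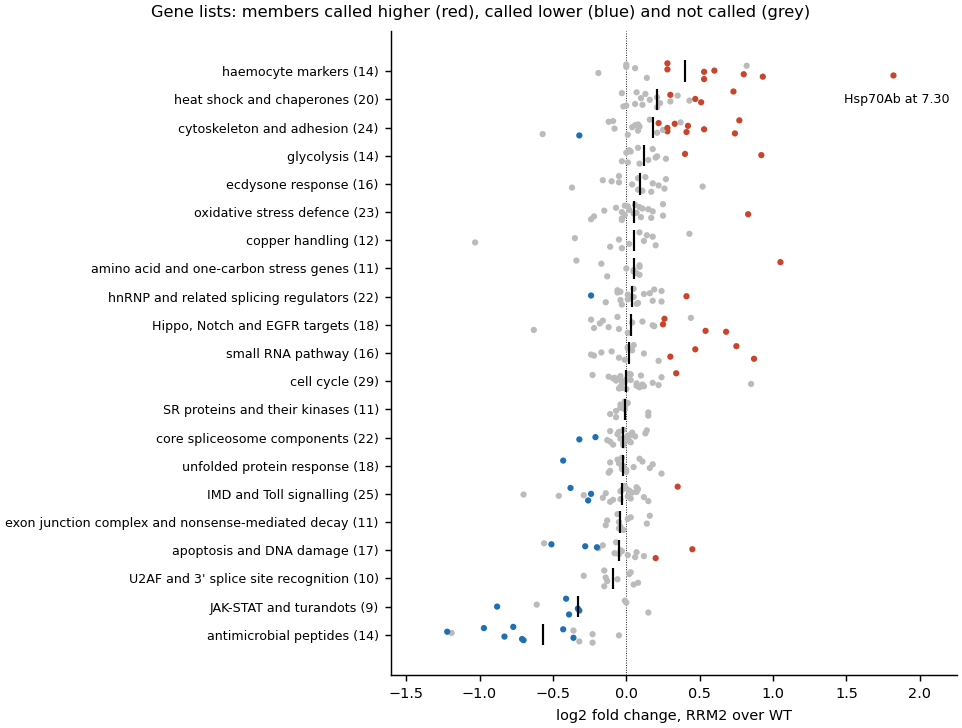
Each point is a tested member of a gene list at its log2 fold change of RRM2 over WT, red if called higher, blue if called lower and grey if not called. A black line marks the list's median, the number of tested members stands in brackets, and Hsp70Ab, at 0 CPM in every library of the comparison but 1, lies beyond the axis at 7.30 and was not called.

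Among the genes with the largest rise, stum stood apart. In the fly, stum is known for a role in mechanosensory neurons. It is annotated on chromosome 2R, 21674901 to 21685000, plus strand. It had 1, 2 and 3 estimated counts in the WT libraries and 3932, 3420 and 4366 in the RRM2 libraries, 123 to 137 CPM. The 18 libraries outside RRM2 held at most 10 counts each, so the transcript was abundant in the RRM2 line alone among the 7 lines sequenced. The ratio of CPM in RRM2 to WT was 2045, with a 95% counting interval of 939 to 5573. The isoform stum-RD took 93.5% of the RRM2 counts. Its 10 nearest tested neighbours, 5 on each side, had log2 fold changes between 0.03 and 0.54, and 1 of them was called. Whether this belongs to the construct or to the cell line that carries it cannot be told apart.

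Several metabolic and signalling genes also rose. The gene pug, whose product handles folate-bound one-carbon units, had 8.60, 8.32 and 9.02 CPM in WT and 18, 18.4 and 17.4 CPM in RRM2, and GFP had 15.8 to 18.3 CPM. Its log2 fold change was 1.05 (SE 0.09, edgeR adjusted p 2.10e-07), and it overlaps CG14683 on the same strand. The other genes of the amino acid and one-carbon list, 10 of 11 tested, were not called. Itpr, the inositol trisphosphate receptor that releases calcium from the endoplasmic reticulum, had 6.23, 9.48 and 5.66 CPM in WT, 12.8, 13.5 and 17.2 CPM in RRM2 and 18.1 to 20.4 CPM in GFP. Its log2 fold change was 1.04 (SE 0.15, edgeR adjusted p 9.75e-05). Ldh, lactate dehydrogenase, had 11, 10.8 and 11.6 CPM in WT and 21.7, 29.7 and 12.4 CPM in RRM2 (log2 fold change 0.92, SE 0.23, edgeR adjusted p 0.0135). RRM2 replicate 2 held the highest Ldh value, and without that library the log2 fold change was 0.61 with an edgeR adjusted p of 0.125. Of the 14 glycolysis genes, Ldh and the phosphofructokinase gene Pfk (0.40) were called (14.3%, against 8.11% of all genes). The count was 0 without RRM2 replicate 2, and without WT replicate 3 it was 1.

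The rest of the 12 genes named for their rise were CG15740 (1.31), superdeath (0.95), the receptor tyrosine phosphatase Ptp52F (0.89), AGO3 (0.87), CG31601 (0.86) and the glutathione transferase GstD5 (0.83), with edgeR adjusted p-values of 7.71e-09 to 0.00160. AGO3, an Argonaute of the piRNA pathway, had 8.45, 6.39 and 7.07 CPM in WT and 13.4, 13.5 and 13.2 CPM in RRM2. Within the small RNA list, 4 of 16 tested genes (25%) were higher, against 4.08% of all genes, and 0 lower, the others being tej (0.75), piwi (0.47) and the siRNA-producing Dcr-2 (0.30), with a list median of 0.02. The count was 1 without RRM2 replicate 2, and without RRM2 replicate 3 or WT replicate 3 it was 2. GstD5 had 254, 289 and 300 CPM in WT and 513, 444 and 540 CPM in RRM2, and the other 22 tested genes of oxidative stress defence were not called, while 2 of the list were called without WT replicate 1.

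Among the genes that fell most, Tsf1, the iron carrier transferrin, had 16.2, 21.2 and 21.1 CPM in WT and 4.6, 4.82 and 5.18 CPM in RRM2. GFP held 0.573 to 0.881 CPM. The log2 fold change was −2.0 (SE 0.13, edgeR adjusted p 2.07e-09). Cyp6d2, a cytochrome P450, had 45.4, 49.1 and 47.9 CPM in WT, 12.8, 11.9 and 12.3 CPM in RRM2 and 0.115 to 0.192 CPM in GFP, a log2 fold change of −1.94 (SE 0.08, edgeR adjusted p 4.08e-13). It shares its place with nsr on the other strand. Toll-7, a Toll-family receptor, had 18.9, 18.4 and 15.5 CPM in WT and 5.54, 5.22 and 6.97 CPM in RRM2 (−1.57, SE 0.14, edgeR adjusted p 2.46e-07). The RRM2 libraries of these 3 genes lay below the WT libraries and above the GFP libraries.

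The leucine-rich repeat gene atk (−1.45), the tendon cell transcription factor gene sr (−1.41), CG10126 (−1.35), Msr-110 (−1.22), CG2901 (−1.19), mlt (−1.19) and CG3397 (−1.13) also fell, with edgeR adjusted p-values of 2.44e-07 to 2.69e-05. Of these, atk overlaps CG42764 and mag, CG2901 overlaps ec, and mlt overlaps KCNQ. The mitochondrial gene mt:ATPase8 had the largest fitted fall, −3.76 (SE 0.91, edgeR adjusted p 0.0121), but its WT libraries ran from 8.86 to 249 CPM with 63.0 between, against 7.18 to 8.64 CPM in RRM2. Without WT replicate 1 the log2 fold change of mt:ATPase8 was −2.17 and the edgeR adjusted p 0.132.

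Heat shock and chaperone genes, of which 20 were tested, had 4 members (20%) higher, against 4.08% of all genes, and 0 lower (median log2 fold change 0.21). The co-chaperone gene stv had 43.3, 38.3 and 39.0 CPM in WT and 59.4, 72.1 and 68.4 CPM in RRM2 (0.73, SE 0.11, edgeR adjusted p 1.16e-04). Hsp23, a small heat shock gene, had 461, 418 and 470 CPM in WT and 674, 651 and 601 CPM in RRM2 (0.51, SE 0.08, edgeR adjusted p 2.97e-04). Hsp67Bc (0.47) and Hsp70Bb (0.30) were the others, and Hsp70 copies are near-identical, so their separate counts are uncertain. The count was 2 or 3 when any 1 library was left out, 9 by limma on log2(TPM + 1) and 12 in a fit over the GFP, WT, d38 and RRM2 libraries, d38 being another LS2 mutant of the series. Of 12 tested copper-handling genes, edgeR and DESeq2 called 0 and limma on log2(TPM + 1) called 1. Of the 12, 3 had an unadjusted edgeR p under 0.05, against 1860 of all 8750 genes tested. The metallothionein MtnA was at 2892 CPM in WT and 2791 CPM in RRM2, and its libraries overlapped.

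Apoptosis and DNA damage genes moved both ways, with 2 of 17 higher and 3 lower (29.4% called, against 8.11% of all genes). Without RRM2 replicate 2, RRM2 replicate 3 or WT replicate 3, 1 was higher. The TNF ligand gene egr rose from 279, 270 and 283 CPM to 385, 375 and 378 CPM (0.45, edgeR adjusted p 6.51e-06), and rad50, of the double-strand break repair complex, fell from 103, 105 and 94.5 CPM to 69.7, 71.5 and 72 CPM (−0.51, edgeR adjusted p 1.88e-04). Genes of Hippo, Notch and EGFR signalling had 4 of 18 (22.2%) higher, against 4.08% of all genes, namely the Notch target genes E(spl)m3-HLH (0.68) and E(spl)mbeta-HLH (0.54), the EGFR ligand gene spi (0.26) and ex (0.25). The count was 2 without RRM2 replicate 2. Of 29 cell cycle genes, stg, the mitotic phosphatase (0.34), was the 1 called, and without RRM2 replicate 3 or WT replicate 3 it was not. Of 16 tested ecdysone response genes, edgeR, DESeq2 and limma on log2(TPM + 1) called 0. Of the 16, 2 had an unadjusted edgeR p under 0.05, against 1860 of all 8750 genes tested. Of 18 genes of the unfolded protein response, edgeR called Thor, the translation inhibitor that binds eIF4E (−0.43, edgeR adjusted p 0.00374).

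The lists of splicing factor genes had 0% to 9.09% of their tested members called in expression, against 8.11% of all genes. Of 10 tested genes of U2AF and 3′ splice site recognition, edgeR, DESeq2 and limma on log2(TPM + 1) called 0. Of the 10, 3 had an unadjusted edgeR p under 0.05, against 1860 of all 8750 genes tested. Of 11 SR proteins and SR kinases, edgeR and DESeq2 called 0, limma on log2(TPM + 1) called 1, and 1 had an unadjusted edgeR p under 0.05. U2af50 had 80.2, 79.9 and 86.3 CPM in WT and 76.8, 73.7 and 71.4 CPM in RRM2, with no overlap, and a log2 fold change of −0.15 (SE 0.06, edgeR adjusted p 0.132). In the edgeR fit over the 12 GFP, WT, d38 and RRM2 libraries, 2 genes of this list were called lower, U2af50 (−0.15, adjusted p 0.0279) and Sf3b5, a subunit of the U2 snRNP (−0.28, adjusted p 0.00909). Over the 13 alternatives the adjusted p of U2af50 ran from 0.0279 to 0.403. U2af38 (0.03, edgeR adjusted p 0.823) and SF1, which recognises the branch point (0.05, edgeR adjusted p 0.648), overlapped between the groups. Of 22 hnRNP-type regulators, heph, the polypyrimidine tract binding protein, was higher (0.41, edgeR adjusted p 0.0130) and hfp was lower (−0.24, edgeR adjusted p 0.00147). The call of heph was lost without RRM2 replicate 2 or WT replicate 3. Of 22 core spliceosome genes, Prp31 (−0.32) and Prp6 (−0.21), both of the tri-snRNP, were lower. Of 11 exon junction complex and nonsense-mediated decay genes, edgeR, DESeq2 and limma on log2(TPM + 1) called 0, and 2 had an unadjusted edgeR p under 0.05.

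Isoform choice was tested gene by gene. edgeR's F test called 167 of 4514 genes (3.70%), limma on the isoforms' shares of TPM called 94 of 4284 (2.19%), and 56 of 4284 (1.31%) were called by both. On simulated data 40.2% of the calls of the F test were false, against 1.8% for limma on shares and 0 of 49 for calls by both, so the genes described next are those called by both. The simulated counts were drawn for each transcript on its own, with no reads shared between isoforms. These false shares may therefore not carry over to the real estimates. In all, 8 of the 56 genes were also called in expression, and their median log2 fold change in expression was 0.03. In 44 of the 56 the isoform that gained most and the one that lost most differed by an intron of their shared span, and in 12 they did not. The isoforms of 16 pairs had separate first exons, and 19 pairs had the same coding sequence. The losing isoform had more introns in the shared span in 21 genes and the gaining isoform in 11. Without RRM2 replicate 2, RRM2 replicate 3 or WT replicate 3, both tests called 27, 32 and 33 genes, the F test 87, 92 and 101, and limma 55 each time.

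In Nipsnap and Gem2, isoforms that splice out an intron near the start of the gene lost share in RRM2. Nipsnap-RC, which splices out the intron at chromosome X, 16073432 to 16073509, made up 14.5%, 47.3% and 41.4% of the gene's TPM in WT and 1.86%, 0% and 0% in RRM2, while Nipsnap-RB rose from 37.4%, 13.7% and 28.6% to 44.7%, 46.4% and 46.3%. The GFP libraries had 1.74% to 9.34% of Nipsnap-RC. Adjusted p-values were 0.00583 (edgeR) and 5.30e-04 (limma), and both isoforms encode the same protein. Gem2-RB (Gem2 encodes a partner of SMN in snRNP assembly) splices the intron at chromosome 3L, 19100277 to 19100343, and had 31.8%, 25.6% and 22.6% in WT and 1.00e-05%, 0% and 0% in RRM2 (edgeR adjusted p 0.0122, limma 8.98e-04). GFP had 0.0401%, 0.734% and 9% of it. The edgeR calls of Nipsnap and Gem2 were lost without RRM2 replicate 2 or RRM2 replicate 3.

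Other genes changed at a 3′ splice site. LRR-RG, with an intron at chromosome 2R of 7677735 to 7678569 in place of 7678405 to 7678569, fell from 23.0%, 19.7% and 18.5% to 10.9%, 9.65% and 10.3% (edgeR adjusted p 1.54e-04, limma 0.00350). LRR lies on the minus strand, so the isoform that fell used the 3′ splice site farther along, and GFP held 1.64% to 1.91% of it. With limma fitted to the 6 libraries of WT and RRM2 alone, the call of LRR was lost (adjusted p 0.108).

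In CG6928, on the plus strand, the farther 3′ splice site was used more. CG6928-RD removes the intron at chromosome 3L, 12007401 to 12007493, and CG6928-RB removes 12007401 to 12007615. The share of CG6928-RD was 40.8%, 47.8% and 44.3% in WT and 14.7%, 21.6% and 15.2% in RRM2, and that of CG6928-RB was 36.4%, 45.0% and 49.7% in WT and 72.7%, 62.5% and 73.1% in RRM2. The groups did not overlap, and GFP lay further on, with 80% to 88.4% of CG6928-RB. Adjusted p-values were 0.0324 (edgeR) and 0.00359 (limma), and edgeR's call was lost with each of the 6 libraries left out. In CG17683, CG17683-RA (intron 4131125 to 4131175 on chromosome 2R) rose from 51.0%, 42.6% and 44.8% to 57.2%, 59.5% and 64.1%, and CG17683-RC (4131125 to 4131187) fell from 33.4%, 40.1% and 33.4% to 18.4%, 16.3% and 16.5% (edgeR adjusted p 2.17e-04, limma 0.00782). With limma fitted to the 6 libraries of WT and RRM2 alone, the call of CG17683 was lost (adjusted p 0.0814). The edgeR calls of CG17683 (adjusted p 0.801) and CG6928 were lost with Simes in place of F.

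Sin3A, a transcriptional corepressor on the minus strand, changed between 3′ splice sites 12 bases apart. Sin3A-RE, which uses the farther site (intron 12581940 to 12582288, chromosome 2R) rose from 27.7%, 24.4% and 7.81% to 35.1%, 42.8% and 48.6% in RRM2, and Sin3A-RG (12581952 to 12582288) moved by −14 points between the means (edgeR adjusted p 8.70e-04, limma 0.0135). Cdk2-RA, which splices out the intron at chromosome 3R, 20737185 to 20737259, was listed at 3.00e-05%, 0% and 0% in WT and had 12.6%, 25% and 41.7% in RRM2, with 11.1% to 29.2% in GFP. Cdk2-RB moved from 83.8%, 80.4% and 84.7% to 69.2%, 63.4% and 46.4% (edgeR adjusted p 5.76e-08, limma 0.0316). Leaving out RRM2 replicate 2, RRM2 replicate 3 or any WT library ended limma's call for Cdk2, a cell cycle kinase gene. Leaving out RRM2 replicate 2, RRM2 replicate 3 or WT replicate 3 ended it for Sin3A.

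In the other named genes the isoforms differed at their ends. Pdha, the pyruvate dehydrogenase E1 alpha subunit, and Tmep have isoforms with separate first exons. Pdha-RA had 56.4%, 39.1% and 52.7% in WT and 80.0%, 77.2% and 77.6% in RRM2, and Pdha-RD had 14.5%, 35.3% and 23.4% in WT and 1.81%, 3.48% and 0.733% in RRM2 (edgeR adjusted p 0.00666, limma 8.20e-04). In GFP both Pdha isoforms lay between 39.5% and 47.4%, so RRM2 was farther from GFP than WT was. Tmep-RB fell from 24.4%, 15.4% and 24.0% to 3.40%, 3.19% and 1.00e-05% (edgeR adjusted p 0.0309, limma 0.00765), with 23.9% to 40.2% in GFP. The nucleoporin gene Nup154 gave Nup154-RA 0.704%, 3.22% and 0% in WT and 14%, 20% and 30.1% in RRM2 (edgeR adjusted p 0.00266, limma 0.00873). The myotubularin gene mtm, whose isoforms differ at both ends, gave mtm-RA 4.56%, 18.2% and 0.867% in WT and 22.5%, 35.5% and 38.1% in RRM2 (edgeR adjusted p 0.0107, limma 0.0227). l(2)k05819-RC rose from 16.9%, 27.7% and 21.4% to 44.5%, 39.4% and 45.0%, below the 56.8% to 61.8% of GFP (edgeR adjusted p 2.04e-06, limma 0.00829). With limma fitted to the 6 libraries of WT and RRM2 alone, the call of l(2)k05819 was lost (adjusted p 0.134). That fit also ended limma's calls of Nipsnap, Pdha, CG6928, Cdk2, mtm, Sin3A, Nup154 and Tmep. Fitted to the 12 GFP, WT, d38 and RRM2 libraries, limma no longer called mtm (adjusted p 0.0954), Sin3A (0.0650), Nup154 (0.0698) and Tmep (0.0559). With a pseudocount of 0.05 in place of 0.01 added to the shares, limma's call of Cdk2 was lost (adjusted p 0.194). The edgeR call of Pdha was lost without RRM2 replicate 1 or RRM2 replicate 3, and that of Tmep with any library but WT replicate 2 left out. The limma call of Nup154 was lost without RRM2 replicate 3 or WT replicate 3, and that of mtm without RRM2 replicate 2, RRM2 replicate 3, WT replicate 1 or WT replicate 3.

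**Figure D4:**
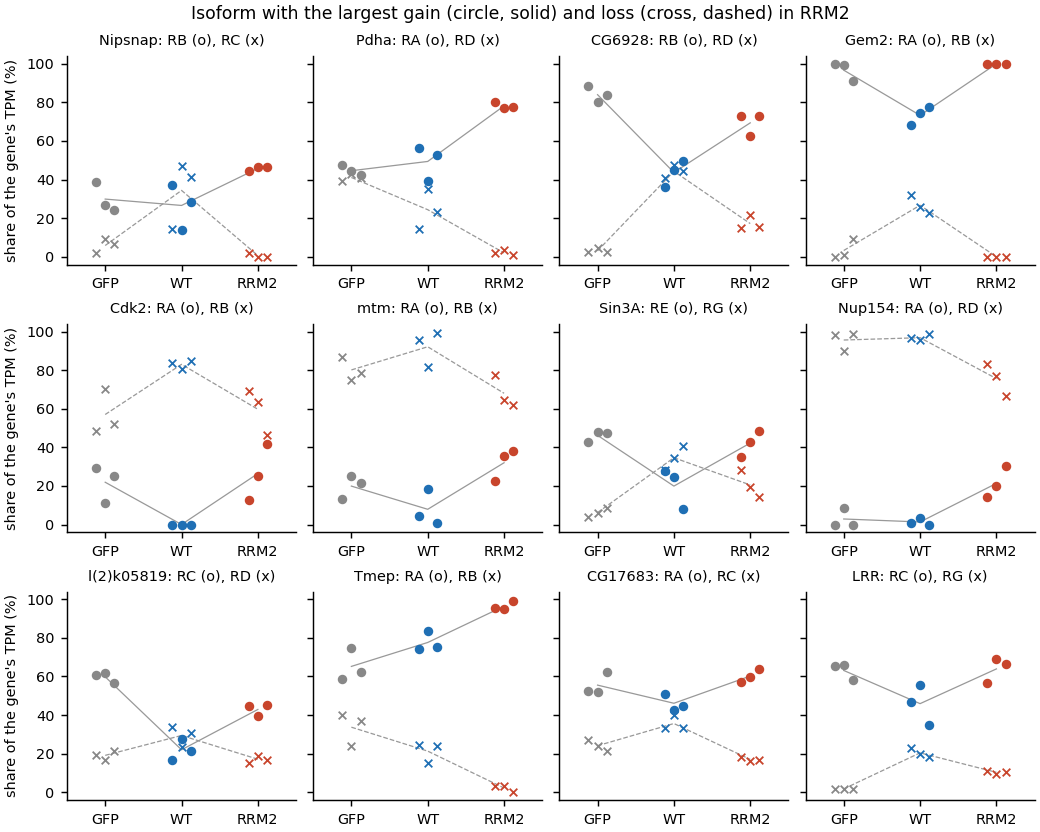
Each panel shows 1 of the 12 named genes, with the share of the gene's TPM in percent for each library of GFP, WT and RRM2. Circles and solid lines are the isoform with the largest gain in RRM2, crosses and dashed lines the one with the largest loss, and in each panel the RRM2 circles lie above all WT circles.

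Over the splicing factor lists, both tests called 1 gene in isoform use, Psi, against 1.31% of all genes. Of 6 tested genes of the U2AF list, edgeR's F test and limma each called 0, and 2 and 1 had an unadjusted p under 0.05. Of 10 SR genes both called 0, and 2 and 3 had an unadjusted p under 0.05. Of 6 core spliceosome genes and 4 of the exon junction complex and nonsense-mediated decay, both tests called 0 as well, with an unadjusted p under 0.05 in 0 and 1 by each test. U2af50-RD had 45.6%, 35.1% and 33.7% in WT and 57.5%, 61.6% and 50% in RRM2, and the gene had an edgeR adjusted p of 0.107 and a limma adjusted p of 0.214. In the edgeR fit over the 12 GFP, WT, d38 and RRM2 libraries it was called (adjusted p 0.0180), and over the 12 alternatives its adjusted p ran from 0.0180 to 0.751 by edgeR and from 0.111 to 0.577 by limma. U2af38-RA lay at 86.4% to 92.0% in WT and 88.1% to 90.2% in RRM2, with adjusted p-values of 1 by both tests. Of 19 hnRNP-type genes, edgeR's F test called 4 (Psi, Rm62, Hrb27C and glo), against 3.70% of all genes, and limma called 3 (Psi, sqd and Rox8), against 2.19%. By each test 9 of the 19 had an unadjusted p under 0.05. The share of all genes under that unadjusted threshold was not computed for the isoform tests, so these counts have no background beside them. Psi, the P-element somatic inhibitor, was the 1 called by both (edgeR adjusted p 9.07e-05, limma 0.0127). Psi-RB had 0.0474%, 1.70% and 6.01% in WT and 8.91%, 24.3% and 20.6% in RRM2. Elsewhere in the lists, both tests called imd, crc (the fly ATF4), Pgi, PyK, Cdk2 and spi.

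Summing isoform TPM to the annotated splice choice gave 6535 events, of which limma called 108 (1.65%) in 87 genes. On simulated data 15% of 40 calls of this test were false, and 34.4% of 96 events changed by 2-fold or more between their forms were recovered. By class, 24 of 1617 alternative 3′ splice sites (1.48%), 16 of 1886 alternative 5′ splice sites (0.848%), 40 of 1619 cassette exons (2.47%) and 28 of 1413 retained introns (1.98%) were called. Among the alternative 3′ splice sites called, the nearer site was used less in RRM2 in 18 and more in 6. Among the cassette exons called, inclusion was lower in RRM2 in 27 and higher in 13. Called alternative 5′ splice sites had the shorter intron higher in 10 and lower in 6, and called introns were retained more in 15 and less in 13. The median log2 odds change over all tested events was 0 for 3′ sites, cassette exons and retained introns and 0.014 for 5′ sites. The events rest on annotated transcripts and not on junction reads, and events of a gene share transcripts. Without RRM2 replicate 2 the count was 37, and without RRM2 replicate 1, RRM2 replicate 3, WT replicate 2 or WT replicate 3 it was 50, 70, 51 and 53. With any 1 library left out, the nearer 3′ site was lower in 8 to 14 events and higher in 1 to 6, and cassette exons were lower in 10 to 18 and higher in 4 to 10. Each of these ranges has its low end without RRM2 replicate 2. The shorter intron at 5′ splice sites was then higher in 2 to 10 events and lower in 2 to 6, and introns were retained more in 6 to 11 and less in 3 to 8.

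**Figure D5:**
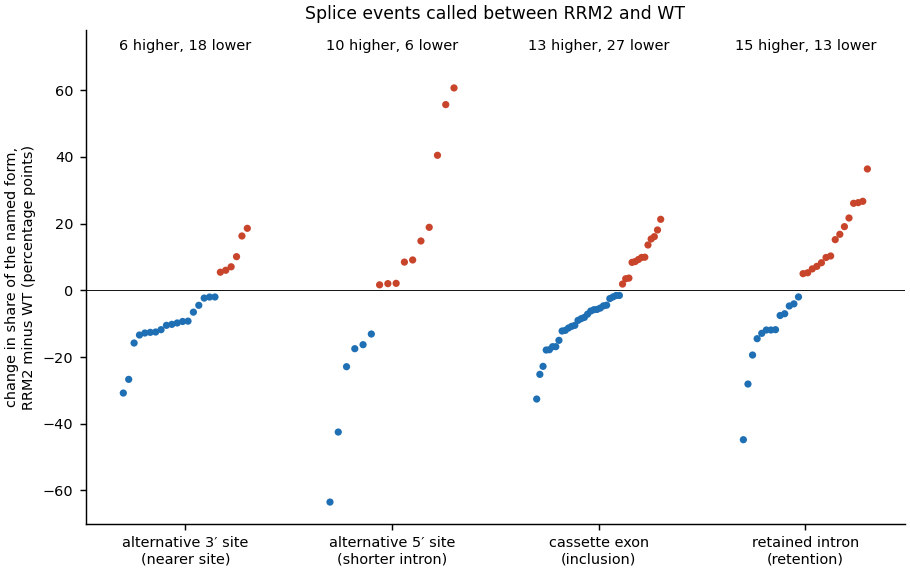
Each point is a called event at its change in the share of the form named under each class, in percentage points of RRM2 minus WT. The nearer 3′ splice site was higher in 6 events and lower in 18, and cassette exons were included more in 13 and less in 27.

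Among genes with at least 500 counts on average, the 6 events with the largest change lay in 4 genes and in little RNA. Those of spen, CG32767, CG16952 and cyst rested on 0.108 to 6.91 summed TPM in a library and on 5.90% to 47.7% of the gene's TPM. In cyst the intron at chromosome 2L, 19508266 to 19508351, was retained in 100% of the RNA of that choice in each WT library and in 44.3%, 56.7% and 64.4% in RRM2 (limma adjusted p 1.78e-04). In spen, at a 5′ splice site, the shorter of a pair of introns (183420 to 183760 and 182914 to 183760, chromosome 2L) had 89.6%, 99.9% and 100% in WT and 32.3%, 6.05% and 60.6% in RRM2 (limma adjusted p 0.0151). The shares of the events in CG32767 moved by 60.7 and −42.5 points, and those in CG16952 by 55.7 and 40.5 points. In the former CG16952 event the shorter intron had 86.7%, 20.2% and 24.8% in WT and 98.7%, 100% and 100% in RRM2. In the latter it had 93.7%, 57.0% and 27.6% in WT and 99.8%, 100% and 100% in RRM2. WT replicate 1 thus lay near RRM2 in both events. GFP had 16.5% to 55.1% in the former and 23.4% to 78.5% in the latter.

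Events in more abundant RNA were picked after their values were seen. The intron of Akap200, a kinase-anchoring protein, at chromosome 2L, 8428068 to 8428319, was retained in 9.55%, 9.80% and 8.40% of the RNA of that choice in WT and in 26.2%, 25.7% and 26.2% in RRM2. GFP had 23.1% to 26.4%, overlapping RRM2, and the limma adjusted p was 1.30e-05, on 249 to 290 summed TPM per library. In RpS21, a ribosomal protein gene, the intron at chromosome 2L, 2856569 to 2856630, was retained in 40.4%, 41.1% and 40.3% in WT and in 55.8% of each RRM2 library, with 56.5% to 57.9% in GFP (limma adjusted p 0.00116). That choice held 2938 to 3553 summed TPM per library. The cassette exon of CG12065 at chromosome X, 8584843 to 8584923, was included in 28.1%, 27.6% and 28.9% in WT and in 10.1%, 10.8% and 10.2% in RRM2, with 5.17% to 6.58% in GFP (limma adjusted p 1.45e-06). These 3 events stayed past the threshold in all 13 alternatives. The exon of DIP1 at chromosome X, 21628848 to 21629792, was included in 14.3%, 19.0% and 14.1% in WT, in 31.1%, 31.6% and 30.9% in RRM2 and in 76.7% to 80.6% in GFP (limma adjusted p 0.00112).

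Several alternative 3′ splice sites lay a few bases apart, and these too were picked after their values were seen. In 14-3-3epsilon, an abundant phosphoprotein-binding adaptor, the intron ending at 18248214 rather than at 18248232 (chromosome 3R, from 18248152) had 59.5%, 60.1% and 60.2% in WT and 46.9%, 47.9% and 47.3% in RRM2, on 679 to 862 summed TPM (limma adjusted p 4.65e-04). GFP had 65.7% to 67.3%, so WT lay between RRM2 and GFP. In B52, an SR protein gene, the intron at chromosome 3R from 13662405 ended at 13662954 rather than 15 bases farther on in 27.1%, 27.0% and 28.4% in WT and in 16.2%, 17.9% and 16.8% in RRM2, and in 4.6% to 5.87% in GFP (limma adjusted p 0.0103). The nearer site of tral, an RNA granule protein gene, 12 bases from the other, had 44.1%, 41.1% and 43.3% in WT and 25.2%, 26.3% and 29.8% in RRM2 (limma adjusted p 0.0260). That of Rox8, a TIA-type splicing regulator, 18 bases from the other, had 40.5%, 39.8% and 43.6% in WT and 29.5%, 29.1% and 29.9% in RRM2 (limma adjusted p 0.0447). The calls for tral and Rox8 were lost under 7 and 9 of 13 alternatives, and that of 14-3-3epsilon under 0.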

How the data were processed

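The deposited tables hold, per transcript and library, estimated counts (expected counts that need not be whole) and TPM, per the file headers. STAR and kallisto are named in the submitters' processing notes with the builds dm6 and BDGP6. Their versions, settings and index are not given in the sources used here. Of 30594 transcripts, 30242 (98.8%) matched the Ensembl release 115 annotation. Estimated counts were summed per gene, rounded to whole numbers and tested by the quasi-likelihood method of edgeR 4.0.16 under R 4.3.3, with TMM scaling and filterByExpr at a minimum count of 10. One fit over all 21 libraries gave 14 residual degrees of freedom, and Benjamini-Hochberg adjusted p-values under 0.05 were called. SE is the log2 fold change divided by the square root of F. Isoform use was tested with edgeR's diffSpliceDGE and with limma 3.58.1 on the logit of TPM shares (pseudocount 0.01, genes with at least 10 counts). Splice events sum the TPM of annotated isoforms, with at least 1 summed TPM in the mean of all 21 libraries, not in each library. These tests were tested on simulated data, drawn for each gene or transcript on its own with no reads shared between isoforms. In it, 79% of 1.5-fold and 88% of 2-fold expression changes were recovered, and 5.6% of 177 calls were false.

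In expression, the 12 largest rises and falls were named among genes called, not overlapping between groups and holding at least 200 counts on average. The 12 isoform genes and 6 events named were the largest changes among those called with at least 500 counts on average. Overlap between groups was not part of the rule for isoforms and events. Called members of the gene lists were named up to 4 a list, and further ones, and those not called, were added after their values were seen. The members and lists were chosen with earlier results of these data known. Some listed genes had no match and were not analysed here. Replicate numbers did not pair the samples. DESeq2 1.42.0, limma on log2(TPM + 1), other scalings and filters, fewer libraries and leaving out each replicate were the alternatives. Counting error alone is covered by the interval given for stum.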

Additional observations from a re-analysis of the deposited data

How the results depend on the processing

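Gene expression calls numbered 444 to 558 with 1 library left out (222 to 298 higher, 219 to 273 lower). In a fit over 12 libraries (WT and RRM2 with d38 and GFP) they numbered 1351 (671 higher, 680 lower), and limma on log2(TPM + 1) gave 587 higher and 170 lower. With the replicate block, a paired fit, 671 genes were called, 654 of them shared with the 710. The replicate numbers did not pair the samples: same-numbered libraries correlated at −0.147, 0.077 and −0.097 in their deviations. Isoform calls by edgeR were 79 with Simes in place of F, 336 in 12 libraries, 272 in the 6 libraries of WT and RRM2, 120 with the replicate block and 87 to 170 with 1 library left out. Limma on shares called 62 at a pseudocount of 0.001, 146 at 0.05, 23 in 6 libraries, 81 with the replicate block and 55 to 81 with 1 library left out. Both tests called 20 in 6 libraries and 27 to 51 with 1 library left out. Splice events numbered 16 in 6 libraries, 89 with the replicate block and 37 to 74 with 1 library left out. The LS2 difference ran from 0.253 to 0.341 with 1 library left out. The shares of U2af38-RA and U2af38-RB, at 0.0556 and −0.0556 points, changed sign without RRM2 replicate 2 (−0.229 and 0.229), RRM2 replicate 3 (−0.316 and 0.316) or WT replicate 1 (−1.429 and 1.429), in both tests, and with 1 library left out U2af38-RA ran up to 1.355 and U2af38-RB down to −1.355. Of 1001 alternative values for named genes in expression, 891 kept their direction and side of the threshold and 108 lost the call. Of 720 values for isoform shares, 598 kept both, 108 lost the call, 2 gained it and 12 changed direction. Called splice events were less stable. The call was lost in 201 of 515 values for alternative splice sites, 214 of 520 for cassette exons and 138 of 362 for retained introns. The causes were not tested. With 3 libraries a group, simulated 2-fold isoform changes were recovered in 16% by edgeR's F test and 9.9% by limma. Simulated 4-fold changes were recovered in 48% by the F test, 50% by limma and 43.5% by both. Many isoform changes, large ones included, may therefore go uncalled in these data.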

Other observations

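Calls were spread over the chromosome arms: 8.98% of tested genes on 2L, 9.09% on 2R, 8.23% on 3L, 7.80% on 3R, 6.55% on X and 2.86% on chromosome 4. Their direction differed by arm, against 357 higher and 353 lower among all genes tested. On 2L 86 were higher and 56 lower, on 2R 91 and 73, and on 3L 55 and 81. On 3R 83 were higher and 85 lower, on X 41 and 56, and on chromosome 4 1 and 1. Among markers of other tissues, edgeR called 2 of 4 tested muscle genes, 1 of 2 glia genes, 1 of 4 female germline and follicle genes and 1 of 7 epithelium genes lower in RRM2, against 4.03% of all genes. The medians of these lists were −0.55, −0.22, −0.01 and 0.08 on the log2 fold change scale, and limma on log2(TPM + 1) called the glia gene alone. Of 7 neuron, 1 fat body and 2 male germline genes, edgeR, DESeq2 and limma on log2(TPM + 1) called 0. An unadjusted edgeR p under 0.05 was found in 2, 0 and 2 of them, against 1860 of all 8750 genes tested. In the muscle list wupA, a troponin gene, had 0.563, 0.597 and 0.251 CPM in WT and 0.157, 0.201 and 0.0909 CPM in RRM2 (log2 fold change −1.66, edgeR adjusted p 0.0189). The titin-like gene sls (−0.58, edgeR adjusted p 0.0167) was called although its libraries overlapped. Of the glia list, the glutamine synthetase gene Gs2 fell (−0.57, edgeR adjusted p 6.18e-04), from 15.5, 16.7 and 16.3 CPM to 10.4, 12 and 10.3 CPM, with 1.46 to 2.02 CPM in GFP. The posterior patterning gene osk fell from 26.6, 28.5 and 27.8 CPM to 20.8, 22.7 and 22.2 CPM (−0.34, edgeR adjusted p 0.00333), with 6.74 to 8.05 CPM in GFP. The polarity gene sdt, of the epithelium list, fell as well (−0.22, edgeR adjusted p 0.0236).

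Some splicing regulators were called by 1 isoform test and not by both, and on simulated data 40.2% of the calls of edgeR's F test were false, against 1.8% for limma on shares. Of these genes, glo gave glo-RA, which had 42.4%, 43.2% and 37.9% of the gene's TPM in WT and 49.3%, 51.0% and 61.6% in RRM2 (edgeR adjusted p 0.00887, limma 0.0995). The hnRNP gene sqd gave sqd-RA 55.4%, 52.2% and 50.9% in WT and 61.1%, 61.3% and 62.5% in RRM2 (edgeR adjusted p 0.235, limma 0.0323), with 64.2% to 66.5% in GFP. Hrb27C-RD had 4.66%, 5.39% and 3.93% in WT and 8.64%, 10.9% and 8.88% in RRM2 (edgeR adjusted p 0.00541, limma 0.227). In each of these isoforms all 3 RRM2 libraries lay above all 3 WT libraries.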
